A study of Mus musculus with 7 samples.

Results

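The 35 genes described here are glycolytic enzymes, glucose and lactate transporters, and genes of the hypoxia response, in cells sorted from irradiated B16 tumours, a mouse melanoma line. They were chosen by symbol from knowledge of the 2 pathways, with earlier results of these data known, out of 56953 genes in the count files. All 35 were among the 13990 genes that passed a filter on low counts. They fall into 7 roles: 2 glucose transporters, 15 glycolytic enzymes, 2 PFKFB regulators, 4 lactate enzymes and transporters, 2 pyruvate dehydrogenase kinases, 3 genes of oxygen sensing and 7 HIF-only targets, that is, HIF targets with no step in glycolysis. RNA came from 3 mice given radiotherapy (RT) at 8 Gy with AAV-iIL12, an adeno-associated virus vector named for interleukin 12, and from 4 mice given RT at 8 Gy with the control vector AAV-iLuc. Tumours were taken 5 days after treatment in both groups, and cells lacking CD45 (carried by leukocytes) and CD31 (carried by endothelium) were sorted after staining with a viability dye. Both groups were irradiated and both received a vector, so the comparison holds no untreated tumour. The mouse strain, age and sex are not given in the sources used here, and the titles of the AAV-iIL12 libraries, but not those of the AAV-iLuc libraries, carry the letters WT.

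Glycolysis turns glucose into pyruvate through a chain of enzymes, and lactate dehydrogenase then turns pyruvate into lactate, which leaves the cell through monocarboxylate transporters. When oxygen is low, prolyl hydroxylases (the Egln genes) stop marking the alpha subunits of hypoxia-inducible factor (HIF) for removal, and HIF raises many of these enzymes together with genes of pH control, mitophagy and vessel growth. Melanoma cells are known for a high rate of glycolysis also where oxygen is present.

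Library totals ranged from 16356653 to 19080587 counts, and levels are given in CPM, counts scaled to the size of the library with TMM factors. Melanocyte markers summed to between 27845 and 28742 CPM in AAV-iIL12 and between 22839 and 25991 CPM in AAV-iLuc, with 3 of 7 markers higher and 0 lower. Over all tested genes, 23.5% were higher and 23.7% lower in edgeR. Leukocyte markers summed to 17.7, 11.8 and 9.07 CPM in AAV-iIL12 and to 20.9, 2.30, 2.20 and 4.59 CPM in AAV-iLuc. The high AAV-iLuc value was that of replicate 1, and the other AAV-iLuc libraries lay below every AAV-iIL12 library. Of the 14 leukocyte markers only 7 had enough counts to test. Of these, 0 passed the edgeR test, and Ms4a1 was at 0 in every library. Fibroblast markers summed to 58.3 to 158 CPM against 84.3 to 290.0 CPM, with 0 of 8 past the test. No tested leukocyte or fibroblast marker had an unadjusted p under 0.05 in edgeR (0 in each list). Endothelial markers summed to 15.2 to 26.7 CPM against 19.4 to 24.9 CPM, nearly all of it Vwf, which was at 14.6 to 26.3 CPM and 19.2 to 24.7 CPM and did not pass, while Cdh5, Emcn and Cldn5 were at 0 in every library. A list of dissociation-associated genes was made of immediate early genes such as Fos and Jun and the heat shock genes Hspa1a and Hspa1b. Of its 10 tested genes, 8 were higher and 0 lower (Fos and Hspa1b did not pass), beside 23.5% and 23.7% of all tested genes. The list summed to between 2546 and 3177 CPM against 1285 to 1617 CPM, and its part in the results was not tested. In bulk RNA, fewer cells of a type and less RNA per cell cannot be told apart.

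HIF binds a short core, ACGTG or GCGTG, within the hypoxia response element. In the 250 bases before each RefSeq transcription start (build GRCm38.p6, not the build of the counts), at least 1 core on either strand was found in 37 of 45 promoters of these genes (82.2%), in 55.4% of the promoters of tested genes and in 38.6% of all 32851 promoters. All 6 HIF-only targets with an entry had a core, and 12 of 15 glycolytic enzymes had one in at least 1 promoter. A palindromic CACGTG, which also is the E-box that MYC and MITF bind, counts as a match on both strands. The sequences of 7 genes are shown. They are those of the 3 members that fell most, the enzyme that makes lactate and the enzyme that rose most. The others are those of 2 HIF-only targets whose levels were close in both groups. Each is the strand of the gene, 5′ to 3′, ending just before the start, and capitals mark the cores.
Egln3 (chr12:54203875-54204124, minus strand): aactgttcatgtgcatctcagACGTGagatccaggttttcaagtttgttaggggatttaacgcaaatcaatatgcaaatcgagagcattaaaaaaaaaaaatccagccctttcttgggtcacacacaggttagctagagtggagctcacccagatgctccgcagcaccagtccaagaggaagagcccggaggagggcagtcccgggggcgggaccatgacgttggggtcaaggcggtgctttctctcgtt
Ddit4 (chr10:59951771-59952020, minus strand): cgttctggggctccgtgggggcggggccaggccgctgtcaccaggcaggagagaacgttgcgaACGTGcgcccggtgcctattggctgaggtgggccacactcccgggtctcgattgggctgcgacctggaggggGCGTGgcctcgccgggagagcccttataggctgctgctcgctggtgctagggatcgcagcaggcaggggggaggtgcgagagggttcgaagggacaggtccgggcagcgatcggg
Pfkfb3, upstream start (chr2:11553930-11554179, minus strand): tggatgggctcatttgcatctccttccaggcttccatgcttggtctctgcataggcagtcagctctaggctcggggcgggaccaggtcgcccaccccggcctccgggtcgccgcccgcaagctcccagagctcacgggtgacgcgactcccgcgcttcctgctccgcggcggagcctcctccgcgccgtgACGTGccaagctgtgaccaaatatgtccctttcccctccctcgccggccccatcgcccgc
Pfkfb3, downstream start (chr2:11502091-11502340, minus strand): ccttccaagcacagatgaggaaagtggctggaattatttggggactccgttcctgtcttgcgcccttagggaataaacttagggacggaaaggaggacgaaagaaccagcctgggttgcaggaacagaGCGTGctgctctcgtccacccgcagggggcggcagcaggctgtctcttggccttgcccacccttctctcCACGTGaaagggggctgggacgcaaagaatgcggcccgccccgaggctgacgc
Ldha (chr7:46845554-46845803, plus strand): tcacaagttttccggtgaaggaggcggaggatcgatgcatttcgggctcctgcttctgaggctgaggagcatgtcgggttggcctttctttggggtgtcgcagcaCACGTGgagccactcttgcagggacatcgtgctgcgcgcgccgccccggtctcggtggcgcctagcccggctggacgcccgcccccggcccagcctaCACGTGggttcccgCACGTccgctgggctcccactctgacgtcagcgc
Pfkp (chr13:6648772-6649021, minus strand): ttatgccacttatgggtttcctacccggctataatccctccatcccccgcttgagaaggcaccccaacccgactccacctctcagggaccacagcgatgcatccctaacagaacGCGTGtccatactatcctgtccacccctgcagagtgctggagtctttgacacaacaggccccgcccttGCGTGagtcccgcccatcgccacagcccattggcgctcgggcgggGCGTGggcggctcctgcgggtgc
Bnip3 (chr7:138909507-138909756, minus strand): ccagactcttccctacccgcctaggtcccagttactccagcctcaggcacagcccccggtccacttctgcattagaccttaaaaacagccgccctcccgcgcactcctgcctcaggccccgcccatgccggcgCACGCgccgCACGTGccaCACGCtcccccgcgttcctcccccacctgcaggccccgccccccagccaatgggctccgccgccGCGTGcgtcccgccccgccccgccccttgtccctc
Car9 (chr4:43506776-43507025, plus strand): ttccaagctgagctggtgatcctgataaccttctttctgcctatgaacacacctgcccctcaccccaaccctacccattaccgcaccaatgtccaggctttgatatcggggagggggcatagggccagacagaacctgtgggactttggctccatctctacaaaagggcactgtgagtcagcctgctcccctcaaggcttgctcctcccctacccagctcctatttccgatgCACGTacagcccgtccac
Of the genes shown that fell, Egln3 had 1 core, Ddit4 2, Pfkfb3 1 and 3 at its starts, and Ldha 5, with 1 core at a further Ldha start that is not shown. Pfkp, which rose, had 3, and Bnip3 and Car9, which did not pass, had 5 and 1. Eno2, which fell, had 0, as had Gpi1 and Tpi1, which did not pass. A match describes letters and does not show that HIF bound there.

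Most of these 35 genes moved little, and more often down than up. Of the 35 genes, 3 were higher in AAV-iIL12 tumours, 10 were lower and 22 did not pass (quasi-likelihood test of edgeR, p adjusted by Benjamini-Hochberg over all genes tested, threshold 0.05). That is 37.1% called, where 47.2% of all tested genes were called, 23.5% higher and 23.7% lower. The groups did not overlap for 15 of the 35 genes (42.9%, against 52.5% of all tested genes). The median log2 fold change was -0.15, beside -0.01 over all tested genes, and 26 of 35 estimates lay below 0. Only Egln3 and Ddit4 differed by at least 2-fold (5.71%, against 11.2% of tested genes). The split depends on the scaling: with library size only 1 gene was higher and 19 lower, and with upper quartile scaling 1 and 17. Over all tested genes those scalings moved the higher share of calls from 49.8% to 36.0% and 38.5%. Without AAV-iLuc replicate 1, 1 of the 35 genes was higher and 9 lower.

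**Figure D1:**
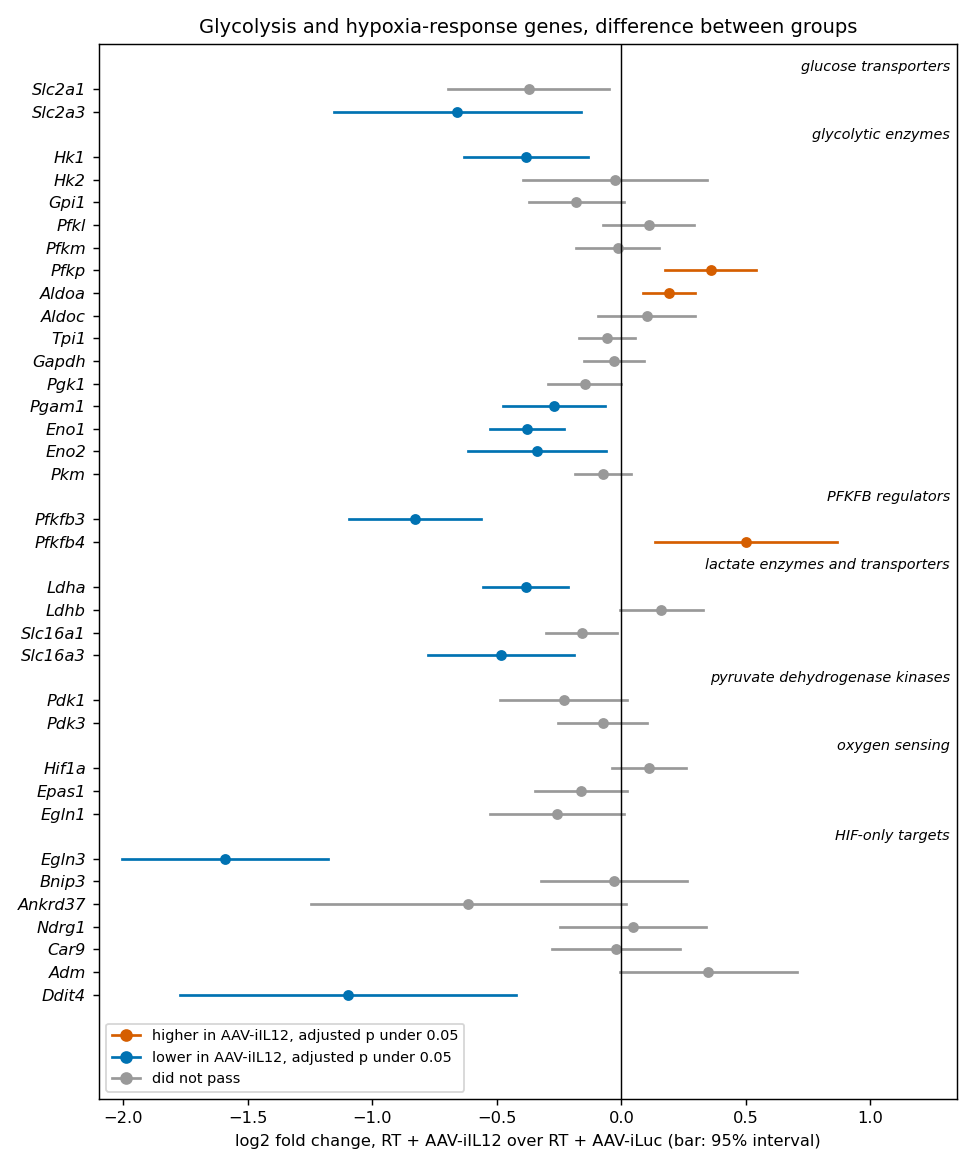
Log2 fold change of each gene, RT + AAV-iIL12 over RT + AAV-iLuc, by role, with its 95% interval from the edgeR fit (3 against 4 libraries). The 15 enzymes lie between -0.38 and 0.36, while Egln3 and Ddit4 lie below -1.

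AAV-iIL12 replicate 1 stood apart from the other libraries, in these genes toward low values and over all tested genes in both directions. It was the lowest of all 7 libraries for 24 of the 35 genes and the highest for 0, whereas it was the lowest for 25.8% and the highest for 25.7% of all tested genes. Each other library was the lowest for 8.58% to 16.7% of tested genes and the highest for 8.01% to 18.6%. Within its own group AAV-iIL12 replicate 1 was the lowest for 32 of 35 genes, against 38.4% of tested genes. Its level was a median of 0.81 times the mean of AAV-iIL12 replicates 2 and 3, and 0.68 times for the 7 HIF-only targets, where the median over all tested genes was 1.001. Ankrd37, Ddit4, Slc2a3 and Hk2 stood at 0.41, 0.58, 0.60 and 0.60 times that mean. The dissociation-associated genes summed to 3177 CPM in this library against 2546 and 2670 CPM in the other AAV-iIL12 libraries, leukocyte markers to 17.7 against 11.8 and 9.07 CPM, and fibroblast markers to 158 against 103 and 58.3 CPM. Their part in the low values was not tested. Without it, 3 of the 35 genes were higher (Pfkp, Aldoa and Adm) and 7 lower (Hk1, Eno1, Pfkfb3, Ldha, Slc16a3, Egln3 and Ddit4), and 20 of 35 estimates lay below 0.

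**Figure D2:**
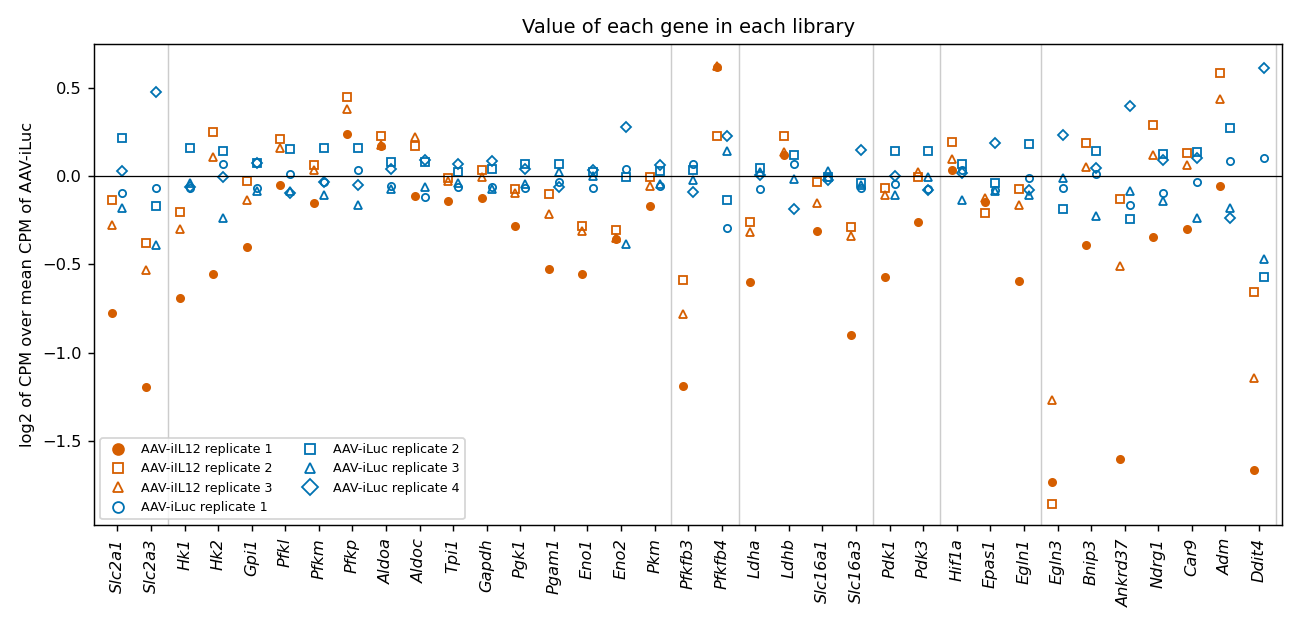
Value of each gene in each library as log2 of its CPM over the mean CPM of the 4 AAV-iLuc libraries (orange, AAV-iIL12; blue, AAV-iLuc; filled circle, AAV-iIL12 replicate 1). The filled circle is the lowest point for 24 of 35 genes.

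Of the glucose transporters, Slc2a1 (GLUT1), the basal transporter of most cells, was the more abundant, at 95.5 CPM per kilobase of exon in AAV-iIL12 and 124 in AAV-iLuc, against 4.98 and 7.87 for Slc2a3 (GLUT3), the high-affinity transporter. Slc2a1 (ENSMUSG00000028645, chromosome 4, 118965908 to 118995180, GRCm39) stood at 253, 394 and 357 CPM in AAV-iIL12 replicates 1 to 3 and at 406, 503, 383 and 442 CPM in AAV-iLuc replicates 1 to 4. The groups overlapped, and its log2 fold change of -0.37 ± 0.14 (SE) did not pass in edgeR (adjusted p = 0.0567). It passed, as lower, in 7 of the 16 alternatives, DESeq2 and limma-voom among them (adjusted p = 0.0136 and 0.0399). Without AAV-iIL12 replicate 1 the estimate was -0.20 (edgeR adjusted p = 0.157), and without AAV-iLuc replicate 2 it was -0.29 (0.134). Slc2a3 (chromosome 6, 122704768 to 122778599) stood at 24.9, 43.9 and 39.5 CPM against 54.4, 50.7, 43.5 and 79.5 CPM, with the lowest value in AAV-iIL12 replicate 1 and the highest in AAV-iLuc replicate 4. It fell by 0.66 on the log2 scale (SE 0.22, edgeR adjusted p = 0.0332). The call was lost when replicate 1 or 3 of AAV-iIL12 was left out, or replicate 4 of AAV-iLuc (adjusted p in edgeR = 0.107, 0.0623 and 0.0723) and in DESeq2 (adjusted p = 0.0645).

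Among the 15 glycolytic enzymes, 2 rose, 4 fell and 9 did not pass, 40.0% called beside 47.2% of all tested genes. Their median log2 fold change was -0.06, and no enzyme differed by more than 0.38. Per kilobase of exon, Aldoa, Gapdh, Tpi1 and Pkm led the pathway in both groups, at 1648, 1238, 1088 and 973 CPM per kilobase in AAV-iIL12, and Eno2 was lowest at 10.5. Together the enzymes held 2.28% to 2.61% of all raw counts in AAV-iIL12 and 2.59% to 2.83% in AAV-iLuc, without TMM factors. With TMM factors they summed to 23662 to 27060 CPM in AAV-iIL12 and 25196 to 27365 CPM in AAV-iLuc, and the groups overlapped. With replicate 1 or 3 of AAV-iIL12 or replicate 2 of AAV-iLuc left out, 2 enzymes fell in each case, and without AAV-iLuc replicate 1, 1 rose. With library size only 1 rose and 8 fell, and with upper quartile scaling 1 and 7.

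**Figure D3:**
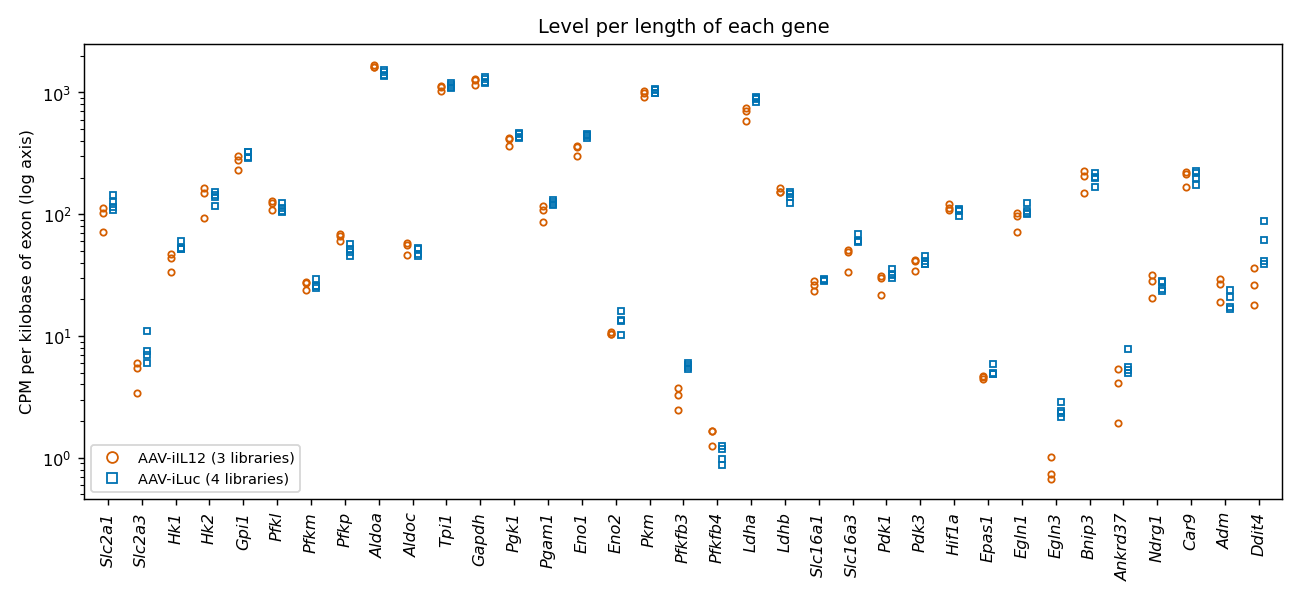
Level of each gene in each library as CPM per kilobase of exon, on a log axis (circles, 3 AAV-iIL12 libraries; squares, 4 AAV-iLuc libraries). Levels run from Egln3 at 0.806 (mean of AAV-iIL12) to Aldoa at 1648, and the differences between genes exceed those between groups.

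The first step, which traps glucose in the cell, is carried by hexokinases. Hk1, the constitutive form, stood at 285, 401 and 374 CPM in AAV-iIL12 and at 439, 514, 448 and 442 CPM in AAV-iLuc, with no overlap. It fell by 0.38 on the log2 scale (SE 0.11, edgeR adjusted p = 0.0172), and by 0.25 without AAV-iIL12 replicate 1 (edgeR adjusted p = 0.0301). Hk2, the HIF-responsive form, was the more abundant, at 135 against 41.4 CPM per kilobase for Hk1 in AAV-iIL12. Its libraries ran from 558 to 978 CPM in AAV-iIL12 and from 698 to 906 CPM in AAV-iLuc, a log2 fold change of -0.03 with a 95% interval from -0.39 to 0.34. AAV-iIL12 replicate 1 stood at 558 CPM and the other libraries of its group at 978 and 885 CPM. Without that library the estimate was 0.19 (edgeR adjusted p = 0.150). Gpi1, which isomerises the trapped sugar, was at 1755 ± 228 CPM (SD, n = 3) against 1989 ± 118 CPM (SD, n = 4) and did not pass. It passed as lower with library size only, with upper quartile scaling and without AAV-iIL12 replicate 2 (edgeR adjusted p = 0.0227, 0.0341 and 0.0371).

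Phosphofructokinase, the committed step, has 3 subunit genes, and they did not move alike. Pfkp (ENSMUSG00000021196, chromosome 13, 6629804 to 6698813), the platelet-type subunit, stood at 801, 925 and 880 CPM in AAV-iIL12 and at 694, 757, 604 and 654 CPM in AAV-iLuc. All AAV-iIL12 libraries lay above all AAV-iLuc libraries, and it rose by 0.36 on the log2 scale (SE 0.08, edgeR adjusted p = 0.00505). Pfkl, the liver-type subunit, was at 805 ± 75.2 against 746 ± 59.9 CPM, and Pfkm, the muscle-type subunit, at 87.6 ± 7.04 against 88.5 ± 7.23 CPM, and neither passed. The ratio of 2 genes within a library does not move with the scaling. The log2 ratio of Pfkp to Pfkl was 0.25 ± 0.04 (SE) higher in AAV-iIL12, and that of Pfkm to Pfkl 0.12 ± 0.03 lower, without overlap in either case (exact permutation test, two-sided, with 35 splits, p = 0.0286, the smallest it can give, adjusted p = 0.0490 over 12 ratios).

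The other enzyme that rose was Aldoa, the main aldolase, which splits the sugar. It stood at 4728, 4925 and 4742 CPM against 4049, 4444, 3997 and 4318 CPM. It rose by 0.19 (SE 0.05, edgeR adjusted p = 0.00747), and the call was lost without replicate 1 of AAV-iLuc (adjusted p in edgeR = 0.0718), with library size only (0.0899) and with upper quartile scaling (0.0666). Its paralog Aldoc was at 174 ± 20.9 against 162 ± 11.4 CPM and did not pass.

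Tpi1, Gapdh and Pkm gave the narrowest intervals around 0. Gapdh, which makes the first NADH of the pathway, stood at 4787, 5358 and 5209 CPM against 5012, 5369, 4967 and 5540 CPM. Its log2 fold change was -0.03 with a 95% interval from -0.15 to 0.09. Triosephosphate isomerase (Tpi1) gave -0.06, with an interval from -0.17 to 0.05. Pyruvate kinase (Pkm) gave -0.07, with an interval from -0.19 to 0.04. Pkm and Tpi1 passed, as lower, with library size only (edgeR adjusted p = 0.0201 and 0.0313), and Pkm also with upper quartile scaling (0.0373).

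Among the 15 listed enzymes, most of those that fell act in the later steps. Eno1 (ENSMUSG00000063524, chromosome 4, 150321178 to 150333336), the main enolase, stood at 1620, 1951 and 1912 CPM in AAV-iIL12 and at 2269, 2417, 2380 and 2435 CPM in AAV-iLuc. No libraries overlapped, and it fell by 0.38 on the log2 scale (SE 0.07, edgeR adjusted p = 0.00113). Pgam1, the mutase before it, stood at 172, 231 and 213 CPM against 242, 260, 252 and 238 CPM and fell by 0.27 (SE 0.09, edgeR adjusted p = 0.0331). That call was lost when replicate 1 or 3 of AAV-iIL12 was left out, or replicate 2 or 3 of AAV-iLuc (adjusted p in edgeR = 0.0838, 0.0625, 0.0742 and 0.0712), and without AAV-iIL12 replicate 1 the fall was 0.15. Eno2, the neuronal enolase, stood at 48.9, 50.5 and 49.0 CPM against 64.2, 62.2, 47.8 and 75.7 CPM, so the groups overlapped through AAV-iLuc replicate 3. It fell by 0.34 (edgeR adjusted p = 0.0469), a call lost when any 1 library other than replicate 3 of AAV-iLuc was left out (adjusted p in edgeR = 0.0758 to 0.122), in limma-voom (0.0564) and with size factors from median ratios (0.0504). A further enolase outside the 35 genes, Eno3, was named after its value was seen. It rose from 80.6 ± 3.72 to 94.4 ± 8.28 CPM without overlap (log2 fold change 0.23, edgeR adjusted p = 0.0171). Pgk1, phosphoglycerate kinase, was at 902 ± 69.9 against 999 ± 46.2 CPM and did not pass (edgeR adjusted p = 0.0921), although its libraries did not overlap. It passed as lower with library size only and with upper quartile scaling (edgeR adjusted p = 0.0117 and 0.0204). Aldoa, Gapdh, Pgk1, Pgam1, Eno1 and Ldha have processed copies in the genome. Those copies that RefSeq names after the gene and the files hold had at most 0.260% of the gene's counts, but reads that match several places can be lost from both.

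The 2 regulators that set the level of fructose 2,6-bisphosphate, the activator of phosphofructokinase, moved in opposite directions. Pfkfb3 (ENSMUSG00000026773, chromosome 2, 11476244 to 11558888), whose product mostly makes the activator, stood at 18.8, 28.5 and 24.9 CPM in AAV-iIL12 and at 45.0, 43.9, 42.3 and 40.4 CPM in AAV-iLuc. The groups were well apart, and it fell by 0.83 on the log2 scale (SE 0.12, edgeR adjusted p = 3.12e-04), to 0.56 times its control level. Pfkfb4 (chromosome 9, 108820846 to 108861296) was far less abundant, at 8.04, 6.14 and 8.08 CPM against 4.26, 4.77, 5.78 and 6.13 CPM. Its groups touched without overlap, since AAV-iIL12 replicate 2 and AAV-iLuc replicate 4 were nearly equal, and it rose by 0.50 (SE 0.16, edgeR adjusted p = 0.0287). The Pfkfb4 call was lost when replicate 1 or 3 of AAV-iIL12 was left out, or replicate 1 or 2 of AAV-iLuc (adjusted p in edgeR = 0.0643 to 0.108), with library size only (0.0646) and with upper quartile scaling (0.0512). The Pfkfb4 to Pfkfb3 ratio rose 2.47-fold, a log2 difference of 1.31 ± 0.29 (SE, exact permutation adjusted p = 0.0490). In CPM per kilobase it was 0.66, 0.33 and 0.50 in AAV-iIL12 and 0.15, 0.17, 0.21 and 0.24 in AAV-iLuc.

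At the lactate step the subunit that favours lactate production fell and its partner did not. Ldha (ENSMUSG00000063229, chromosome 7, 46490899 to 46505051) stood at 1933, 2448 and 2354 CPM in AAV-iIL12 and at 2782, 3026, 2975 and 2937 CPM in AAV-iLuc. Every AAV-iIL12 library lay below every AAV-iLuc library, and it fell by 0.38 on the log2 scale (SE 0.08, edgeR adjusted p = 0.00226), and by 0.28 without AAV-iIL12 replicate 1 (0.000698). Ldhb, whose subunit favours the return of lactate to pyruvate, stood at 237, 256 and 240 CPM against 229, 237, 217 and 192 CPM. Its estimate was 0.16 with a 95% interval from -0.01 to 0.33 and did not pass (edgeR adjusted p = 0.105). Per kilobase Ldhb was 0.23 ± 0.02 (SD, n = 3) of Ldha in AAV-iIL12 and 0.16 ± 0.02 (SD, n = 4) in AAV-iLuc. That ratio rose 1.47-fold with no overlap (log2 difference 0.55 ± 0.11 SE, exact permutation adjusted p = 0.0490).

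Both lactate transporters had estimates below 0, and only Slc16a3 passed. Slc16a3, which encodes MCT4, the exporter of glycolytic cells, stood at 177, 271 and 261 CPM in AAV-iIL12 and at 316, 322, 320 and 367 CPM in AAV-iLuc, with AAV-iIL12 replicate 1 lowest. It fell by 0.48 (SE 0.13, edgeR adjusted p = 0.0123), and by 0.31 without that library (edgeR adjusted p = 0.00933). Slc16a1, which encodes MCT1, stood at 103, 125 and 115 CPM against 127, 128, 131 and 126 CPM, without overlap. Its estimate of -0.16 did not pass (edgeR adjusted p = 0.0634). It passed, as lower, with library size only, with upper quartile scaling and without AAV-iIL12 replicate 2 (edgeR adjusted p = 0.00879, 0.0138 and 0.0213). The ratio of Slc16a3 to Slc16a1 was lower by 0.34 ± 0.12 (SE) on the log2 scale without overlap (exact permutation adjusted p = 0.0490), and by 0.22 without AAV-iIL12 replicate 1.

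Pyruvate dehydrogenase kinases switch off the enzyme that turns pyruvate into acetyl-CoA, and neither Pdk1 nor Pdk3 passed (0 of 2, also at an unadjusted p under 0.05). Pdk1 passed as lower with library size only (edgeR adjusted p = 0.0378). Pdk1, a HIF target, was at 215 ± 39.3 against 252 ± 18.6 CPM (edgeR adjusted p = 0.124), and Pdk3 at 99.8 ± 10.5 against 105 ± 7.61 CPM (0.470). The log2 ratio of Pdk3 to Pdk1 differed by 0.17 ± 0.08 (SE) and did not pass (exact permutation p = 0.0857, adjusted p = 0.114).

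**Figure D4:**
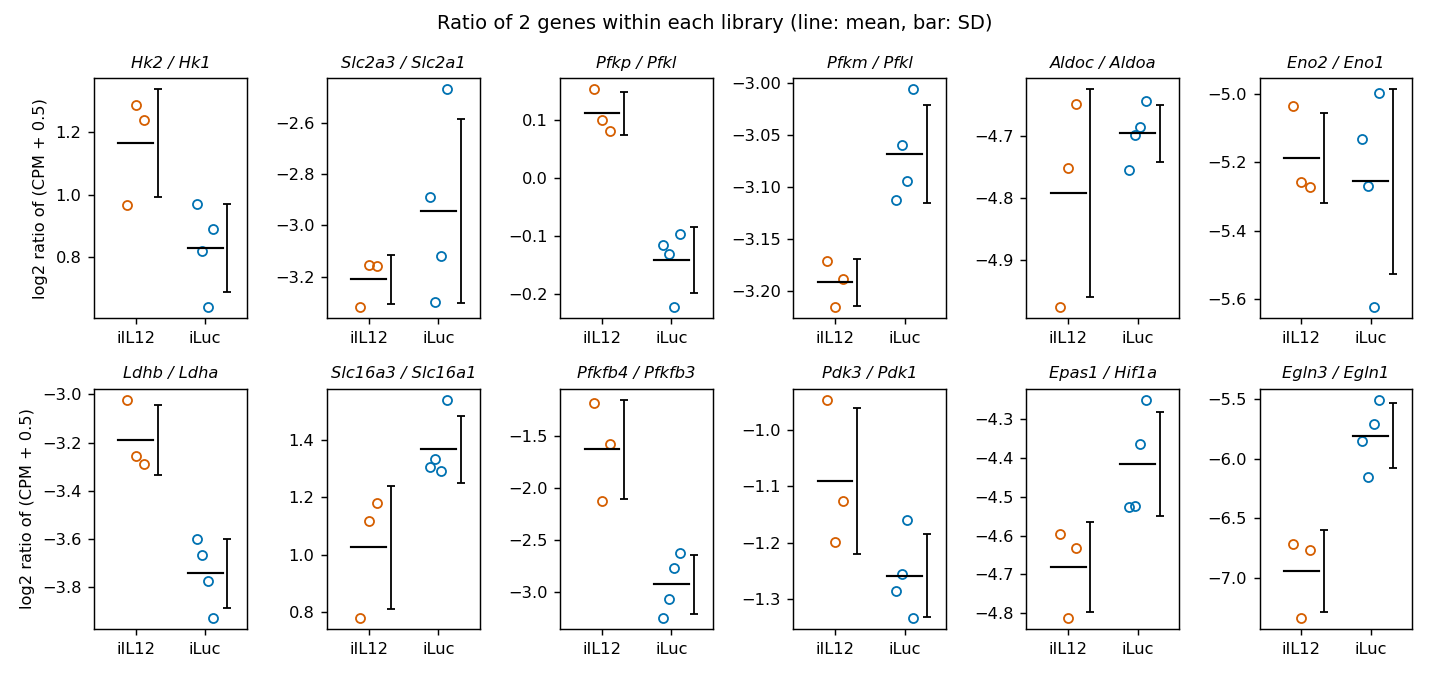
Log2 ratio of 2 genes, with 0.5 added to each CPM, in each library (circles), with the mean (line) and SD (bar) of 3 AAV-iIL12 and 4 AAV-iLuc libraries. Each panel has its own axis, and the groups do not overlap in 7 of 12 panels.

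Isozyme ratios were computed for 12 pairs, and 7 passed: the 5 given for Pfkp, Pfkm, Pfkfb4, Ldhb and Slc16a3, and those of Epas1 to Hif1a and Egln3 to Egln1. All 7 gave the smallest p of the exact permutation test, 0.0286, which needs groups without overlap. Their shared adjusted p of 0.0490 depends on how many of the 12 pairs reached that p, so these calls pass or fail together. The pairs Hk2 to Hk1 (log2 difference 0.33 ± 0.12 SE, exact permutation adjusted p = 0.0857), Slc2a3 to Slc2a1, Aldoc to Aldoa, Eno2 to Eno1 and Pdk3 to Pdk1 did not pass.

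Hif1a and Epas1, which encode alpha subunits of HIF, differed little and did not pass. Arnt, the beta subunit, rose and is given with the further genes below. Hif1a, the alpha subunit that drives glycolytic genes, stood at 638, 711 and 665 CPM in AAV-iIL12 and at 637, 653, 567 and 631 CPM in AAV-iLuc. Its groups overlapped, and the log2 fold change of 0.11 had a 95% interval from -0.04 to 0.26. Epas1, the gene of HIF-2 alpha, stood at 25.9, 24.8 and 26.4 CPM against 27.1, 27.9, 27.1 and 32.7 CPM, and its estimate of -0.16 did not pass (edgeR adjusted p = 0.136), although it passed as lower with library size only and with upper quartile scaling (0.0327 and 0.0388). Per kilobase Epas1 was 0.04 of Hif1a in AAV-iIL12 and 0.05 in AAV-iLuc, and this ratio was lower by 0.26 ± 0.10 (SE) on the log2 scale (exact permutation adjusted p = 0.0490). HIF is controlled at the level of its protein, which these counts do not measure.

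Of the prolyl hydroxylases, Egln3 gave the largest difference of the 35 genes. Egln3 (ENSMUSG00000035105, chromosome 12, 54225767 to 54250646), which encodes the HIF-induced enzyme PHD3, stood at 1.95, 1.79 and 2.69 CPM in AAV-iIL12 and at 6.19, 5.70, 6.43 and 7.63 CPM in AAV-iLuc. All AAV-iIL12 values were below all AAV-iLuc values, and it fell by 1.59 on the log2 scale (SE 0.19, edgeR adjusted p = 8.73e-05), to 0.33 times its control level. Here AAV-iIL12 replicate 1 was not the lowest, and the fall was 1.53 without it. Egln1 (PHD2), the main hydroxylase for HIF-1 alpha, stood at 258, 370 and 347 CPM against 385, 441, 361 and 369 CPM and did not pass (-0.26, edgeR adjusted p = 0.103). It passed as lower with library size only, with upper quartile scaling, with no low-count filter and without AAV-iIL12 replicate 2 (edgeR adjusted p = 0.0288 to 0.0480). The ratio of Egln3 to Egln1 was 2.20-fold lower in AAV-iIL12 (log2 difference -1.14 ± 0.23 SE, exact permutation adjusted p = 0.0490). A further Egln gene outside the 35 genes, Egln2, was named after its value was seen. It rose from 45.3 ± 2.84 to 56.6 ± 3.41 CPM without overlap (log2 fold change 0.32, edgeR adjusted p = 0.00316).

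Among the 7 HIF-only targets, Egln3 and Ddit4 fell, 5 did not pass and none rose, 28.6% called beside 47.2% of all tested genes. The number that rose was also 0 at an unadjusted p under 0.05 in edgeR. By adjusted p it was 0 in DESeq2 and in limma-voom, and 1 (Adm) with quality weights in limma-voom. Their median log2 fold change was -0.03, against -0.06 for the 15 enzymes and -0.01 for all tested genes, and estimates ran from -1.59 to 0.35, against -0.38 to 0.36 for the enzymes. The sign of the HIF-only median changed to 0.10 without AAV-iIL12 replicate 1, to 0.02 without AAV-iLuc replicate 2 and to 0.05 in limma-voom with quality weights. The median of the enzymes stayed between -0.15 and -0.02 over the 16 alternatives. No test of the difference between these lists was made.

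Ddit4 (ENSMUSG00000020108, chromosome 10, 59785491 to 59787656), which encodes the mTORC1 inhibitor REDD1 and responds to hypoxia, glucocorticoids and other stress, stood at 31.8, 64.0 and 45.6 CPM in AAV-iIL12 and at 109, 68.1, 72.9 and 155 CPM in AAV-iLuc. The groups did not overlap but came close, at 64.0 and 68.1 CPM, and AAV-iLuc replicates 1 and 4 were the highest. It fell by 1.10 on the log2 scale (SE 0.30, edgeR adjusted p = 0.0130), and by 0.88 without AAV-iIL12 replicate 1 (edgeR adjusted p = 0.0474).

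The other 5 HIF-only targets did not pass, with estimates from -0.62 for Ankrd37 to 0.35 for Adm. Car9, the cell-surface carbonic anhydrase that is widely used as a hypoxia marker, stood at 383, 517 and 492 CPM in AAV-iIL12 and at 461, 518, 400.0 and 506 CPM in AAV-iLuc. Its log2 fold change was -0.02 with a 95% interval from -0.28 to 0.24. Bnip3, a mitophagy receptor, stood at 340, 508 and 463 CPM against 450.1, 494, 382 and 460.2 CPM, a log2 fold change of -0.03 with an interval from -0.32 to 0.26. Ndrg1, a stress-responsive gene, was at 177 ± 38.1 against 171 ± 15.7 CPM. All 3 had their lowest value in AAV-iIL12 replicate 1, and without it their estimates were 0.10, 0.13 and 0.21, none past the test (edgeR adjusted p = 0.0893 to 0.437). Ankrd37, a HIF target of low abundance, stood at 2.99, 8.31 and 6.37 CPM against 8.11, 7.68, 8.58 and 11.96 CPM and did not pass (-0.62, edgeR adjusted p = 0.101). It passed as lower with no low-count filter and without AAV-iIL12 replicate 2 (edgeR adjusted p = 0.0144 and 0.0298). Adm, the gene of the vasodilator adrenomedullin, stood at 30.7, 48.0 and 43.4 CPM against 33.9, 38.6, 28.2 and 27.2 CPM, with a log2 fold change of 0.35 (edgeR adjusted p = 0.0979). Adm passed as higher when replicate 1 of AAV-iIL12 or replicate 2 of AAV-iLuc was left out, with no low-count filter and in limma-voom with quality weights (adjusted p = 0.0110, 0.0431, 0.0123 and 0.0156).

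Beyond these 35 genes, a further 90 genes of the same pathways were listed, of which 78 were tested: 19 were higher and 27 lower, 59.0% called beside 47.2% of all tested genes. The further genes of oxygen sensing were mostly higher, unlike Hif1a, Epas1 and Egln1, which did not pass, and Egln3, which fell. Of 8 tested genes of oxygen sensing, 6 rose, 1 fell and 1 did not pass, 87.5% called beside 47.2% of all tested genes. Cited2, a HIF-induced competitor of HIF for its coactivator, rose from 136 ± 16.5 to 226 ± 13.2 CPM (log2 fold change 0.74, edgeR adjusted p = 1.07e-04). Siah2, a ubiquitin ligase for prolyl hydroxylases, rose by 0.56, Arnt, the beta subunit of HIF, by 0.36, and Vhl, which marks hydroxylated HIF for removal, by 0.25 (edgeR adjusted p = 0.00706, and 0.0544 with library size only). The gene that fell was Arnt2, named after its value was seen, at 2.42 ± 0.49 against 4.44 ± 1.51 CPM, and its call was lost when replicate 1 or 3 of AAV-iIL12 was left out, or replicate 3 or 4 of AAV-iLuc. With library size only 4 genes of the list rose.

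The wider list of hypoxia-associated genes leaned downward. Of 28 tested, 13 fell, 3 rose and 12 did not pass, 57.1% called beside 47.2% of all tested genes (23.7% lower, 23.5% higher), with a median log2 fold change of -0.22. Vegfa, the vessel growth factor and a standard HIF target, was at 450 ± 97.7 against 483 ± 72.5 CPM and did not pass. Ero1a, an oxidase of protein folding, fell from 1156 ± 119 to 768 ± 214 CPM (-0.59, edgeR adjusted p = 0.0154, and -0.37 without AAV-iIL12 replicate 1), and Plod2, a collagen lysyl hydroxylase, by 0.51. P4ha1, a collagen prolyl hydroxylase, rose from 214 ± 11.1 to 289 ± 11.9 CPM (0.43, edgeR adjusted p = 2.54e-04), and the orphan receptor gene Gpr146 by 0.47. With replicate 1 of AAV-iIL12 or replicate 2 of AAV-iLuc left out, 7 genes of this list fell and 4 rose in each case.

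Among genes of pyruvate import and pyruvate dehydrogenase, 5 of 12 genes fell, 3 rose and 4 did not pass, 66.7% called beside 47.2% of all tested genes. Those that fell code for subunits of pyruvate dehydrogenase: Dlat by 0.34, Dld by 0.29 and Pdhb by 0.28 (edgeR adjusted p = 6.00e-04, 0.00169 and 9.18e-04), and, named after their values were seen, Pdhx and Pdha1. Pdk2, a kinase of the complex, rose from 7.57 ± 0.88 to 13.1 ± 0.42 CPM (0.79, edgeR adjusted p = 2.53e-04), and Mpc1 and Pdk4, named after their values were seen, by 0.24 and 1.09. In the pentose phosphate pathway, which branches from glycolysis to make NADPH and ribose, 2 of 7 genes fell, 1 rose and 4 did not pass, 42.9% called and so near the 47.2% of all tested genes. Transketolase (Tkt) fell from 380 ± 34.2 to 257 ± 19.2 CPM (-0.56, edgeR adjusted p = 3.74e-04) and transaldolase (Taldo1) by 0.41. G6pdx, the first enzyme of the branch, rose by 0.27 (edgeR adjusted p = 0.00543), and by 0.17 with library size only. Under each of the scalings by library size and by upper quartile, 4 genes of this list fell.

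Of 8 tested glycogen genes 2 rose, 0 fell and 6 did not pass. That is 25% called beside 47.2% of all tested genes (23.5% higher, 23.7% lower). Gyg, glycogenin, the primer of glycogen synthesis, rose from 380 ± 62.8 to 698 ± 61.0 CPM (log2 fold change 0.88, edgeR adjusted p = 2.05e-04), and Pygb, a glycogen phosphorylase, by 0.24. With library size only the Pygb rise was 0.15 (edgeR adjusted p = 0.0347), and with that scaling or upper quartile 3 genes of the list fell. Of 15 tested remaining glycolysis genes 4 rose, 6 fell and 5 did not pass, 66.7% called beside 47.2% of all tested genes. Slc2a6, a lysosomal sugar transporter, rose from 15.8 ± 2.60 to 26.6 ± 0.97 CPM (0.76, edgeR adjusted p = 5.79e-04), Pfkfb2 rose by 0.40, and Tigar, which opposes the PFKFB activator, fell by 0.25. The most abundant gene of that list, Bsg, the partner chain of the lactate transporters, was at 1148 ± 71.0 against 1079 ± 46.9 CPM and did not pass. Without AAV-iIL12 replicate 3, 3 genes of it fell.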

How the data were processed

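Bulk RNA was sequenced from 7 sorted tumour samples with a stranded poly(A) kit, per the labels' protocols. The authors deposited raw counts per gene, made with featureCounts 1.6.0 (exons, paired reads, reverse strand) on GENCODE annotation, per the file headers. Alignment with STAR 2.7.9a to GRCm39 and quality control with FastQC 0.11.8 are named in the submitters' processing notes. Symbols matched 52029 of 56953 identifiers, holding 99.4% of counts. For Aldoa, 1 of 2 identifiers, the one with most counts, was used. Reads that align to several places were not counted, per the file headers.

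Counts were fitted with edgeR 4.0.16 (R 4.3.3, TMM scaling, filterByExpr, quasi-likelihood F test), with Benjamini-Hochberg adjustment over all genes tested and a threshold of 0.05. The fit was tested on simulated data. Isozyme ratios used log2 of CPM plus 0.5 and two-sided exact permutation tests (scipy 1.17.1), adjusted over 12 pairs. Alternatives were other scalings and low-count filters, DESeq2 1.42.0, limma-voom (limma 3.58.1) with and without quality weights, a replicate block, other pseudocounts and each library left out. All 35 members were named, and of each further pathway list the most abundant gene, the 3 called genes of smallest p whose mean log2 CPM reached 2, and Vegfa and Vhl. The members and lists were chosen with earlier results of these data known. The labels call the libraries mice, and whether any shared a cage or day is not given in the sources used here.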

Additional observations from a re-analysis of the deposited data

Results flagged for a closer look

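Of 70 gene levels and isozyme ratios examined within the 4 AAV-iLuc libraries, 5 had a library far from the others by Dixon's test, where chance gives about 1 in 20. Hk1 was high in AAV-iLuc replicate 2, at 513.6 CPM, as was Plod2, at 560.2 CPM. In AAV-iLuc replicate 4, Slc16a3 was high at 366.6 CPM and Epas1 at 32.68 CPM, and so was the log2 ratio of Slc16a3 to Slc16a1, at 1.538. The AAV-iIL12 group, with 3 libraries, was too small for this test.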

How the results depend on the processing

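Of the 13 members called, Hk1, Pfkp, Eno1, Pfkfb3, Ldha, Slc16a3, Egln3 and Ddit4 (8) kept their call under all 16 alternatives. With library size only and with upper quartile scaling, 1 member was higher in each case and 19 and 17 were lower; among the enzymes 1 was higher in each case and 8 and 7 were lower. Of the HIF-only targets 1 was higher with no low-count filter and with quality weights in limma-voom. Leaving out 1 library at a time, members higher ranged from 1 to 3 and lower from 7 to 14, enzymes higher from 1 to 2 and lower from 2 to 4, and HIF-only targets higher from 0 to 1. Estimates near 0 changed sign. With quality weights Hk2 was 0.0768, Pfkm 0.0268, Gapdh 0.0021, Bnip3 0.0502 and Car9 0.0525 (log2 fold changes). With library size only Ndrg1 was -0.0437 and Bsg -0.0006, and with upper quartile scaling Ndrg1 was -0.0255. Leaving out 1 library at a time, log2 fold changes ran from -0.18 to 0.19 for Hk2, -0.0513 to 0.0540 for Pfkm, -0.0592 to 0.0211 for Gapdh, -0.12 to 0.0131 for Pdk3, -0.15 to 0.13 for Bnip3, -0.0892 to 0.21 for Ndrg1, -0.10 to 0.10 for Car9, -0.20 to 0.0161 for Ugp2 and -0.25 to 0.0588 for Vegfa. The cause of these changes was not tested. With 3 libraries in a group, counts of calls rest on few samples, and the 95% intervals were widest for Ddit4 and Ankrd37.

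Deviations of same-numbered libraries from their group means correlated at 0.09, 0.03 and -0.05, and the main fit did not pair them. Such correlations cannot show whether libraries shared a cage or day. With a replicate block, 3 members were higher and 9 lower, the calls of Slc2a3 (-0.48, edgeR adjusted p = 0.0746) and Eno2 (-0.22, 0.0986) were lost, Slc2a1 passed as lower (0.0317), Car9 was 0.0098, and 2832 of all genes were higher and 2828 lower. Over the 3 same-numbered pairs the isozyme log2 differences were 0.27 for Pfkp to Pfkl, -0.10 for Pfkm to Pfkl, 0.49 for Ldhb to Ldha, -0.28 for Slc16a3 to Slc16a1, 1.41 for Pfkfb4 to Pfkfb3, -0.21 for Epas1 to Hif1a and -1.04 for Egln3 to Egln1, with an exact p of 0.25, the smallest that 3 pairs allow.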
